A study of Mus musculus with 6 samples.

Results

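The nuclear-encoded subunits of the mitochondrial respiratory chain were examined in YAMC cells, a conditionally immortalised line that the labels describe as colonic epithelium of the young adult mouse. The genes were the protein-coding rows outside the mitochondrial chromosome named Ndufa, Ndufb, Ndufc, Ndufs or Ndufv with a number, Sdha to Sdhd, or with the prefixes Uqcr, Cox4 to Cox8 and Atp5. The rule found 84 rows of 54532 genes listed, of which 22046 are protein coding. The 84 rows hold 83 symbols, because Atp5o is listed under 2 identifiers. By function they fell into 35 genes of complex I, 4 of complex II, 8 of complex III, 19 of complex IV and 18 of complex V. Ndufa4 was placed in complex IV, where its protein is now known to reside.

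The study compared 3 libraries of cells given the human milk sugar 2'-fucosyllactose (2'-FL) for 6 h, at 20 µg/ml, with 3 libraries of untreated control cells. It asked whether 2'-FL acts directly on cells of the intestinal epithelium. All 6 libraries came from the same wild-type line, which carries a temperature-sensitive large T antigen of simian virus 40 under the interferon-inducible H-2Kb promoter and was kept in interferon-gamma. Both groups therefore share the T antigen and the cytokine, and no time in culture is given for the controls. Total counts per library ran from 19978583 to 25251187.

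The respiratory chain passes electrons from NADH and succinate to oxygen and stores the energy as a proton gradient. Complex I oxidises NADH, complex II oxidises succinate, complex III hands electrons to cytochrome c, and complex IV reduces oxygen. Complex V, the ATP synthase, uses the gradient to make ATP. Complexes I, III, IV and V combine nuclear-encoded subunits with a few encoded in mitochondrial DNA, whereas complex II is wholly nuclear-encoded. Several subunits of complex IV exist as a form made in most tissues and a form known from heart, skeletal muscle, lung or testis. Colonic epithelium is known for a high oxidative metabolism fed by butyrate.

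The identity of the cells was checked first. Of 14 epithelial markers, 11 lay below 1 CPM (counts scaled to library size) on average and Cdx1, Cdx2 and Car1 had 0 counts, while the keratins Krt8, Krt18 and Krt19 stood between 271 and 392 CPM. The summed level of the epithelial list was 944 to 1193 CPM with 2'-FL and 846 to 978 CPM in controls. Of 10 fibroblast markers, 2 lay below 1 CPM, and their sum was 7393 to 8572 CPM against 6939 to 7179 CPM. Smooth muscle markers summed to 233 to 487 CPM against 146 to 210 CPM, most of it Acta2, at 208, 454 and 353 CPM against 183, 188 and 132 CPM. All 6 tested smooth muscle markers were higher with 2'-FL, 3 without overlap (6.74% of all genes tested), and DESeq2 called 1 of them, Myl9 (adjusted p = 0.0193), while edgeR called 0. Of the striated muscle markers, 14 of 15 lay below 1 CPM, with the troponin gene Tnnt2 at 13.0 CPM and 6 markers at 0 counts. The part of these marker levels in the values below was not tested.

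Respiratory chain transcripts were abundant. Together the 84 rows took 0.625% of all counts. The test used 78 of them, those that passed the filter on low counts, out of 14129 genes tested. The other 6 were Cox4i2, Cox6a2, Cox8b, Cox7b2, Cox8c and the second row of Atp5o. Mean levels of the 78 ran from 0.841 CPM for Cox7a1 to 819 CPM for Atp5b, and 74 lay above 10 CPM. Levels between genes were compared per length, as CPM per kilobase of the principal transcript. On that scale 75 of the 78 lay above the median of tested protein-coding genes (11.5) and 40 lay above its 90th percentile.

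The complexes differed in this per-length level. The median over genes was 98.9 in complex IV, 93.1 in complex V, 91.6 in complex III, 76.1 in complex II and 44.1 in complex I. The 6 libraries gave medians of 88.2 to 113 for complex IV, 89.5 to 99.7 for complex V, 78.2 to 96.7 for complex III, 73.9 to 79.6 for complex II and 41.2 to 47.4 for complex I. Complex I therefore lay below the others in every library, the ranges of complexes III, IV and V overlapped, and that of complex II met the lower end of complex III. With the gene length listed in the files, which adds up all exons of a gene, the medians were 67.2 for complex IV, 51.6 for complex II, 50.9 for complex III, 39.6 for complex V and 26.5 for complex I, against 7.31 for tested protein-coding genes. The place of complex IV at the top and of complex I at the bottom was common to both scales, and the order of the other complexes was not.

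**Figure D1:**
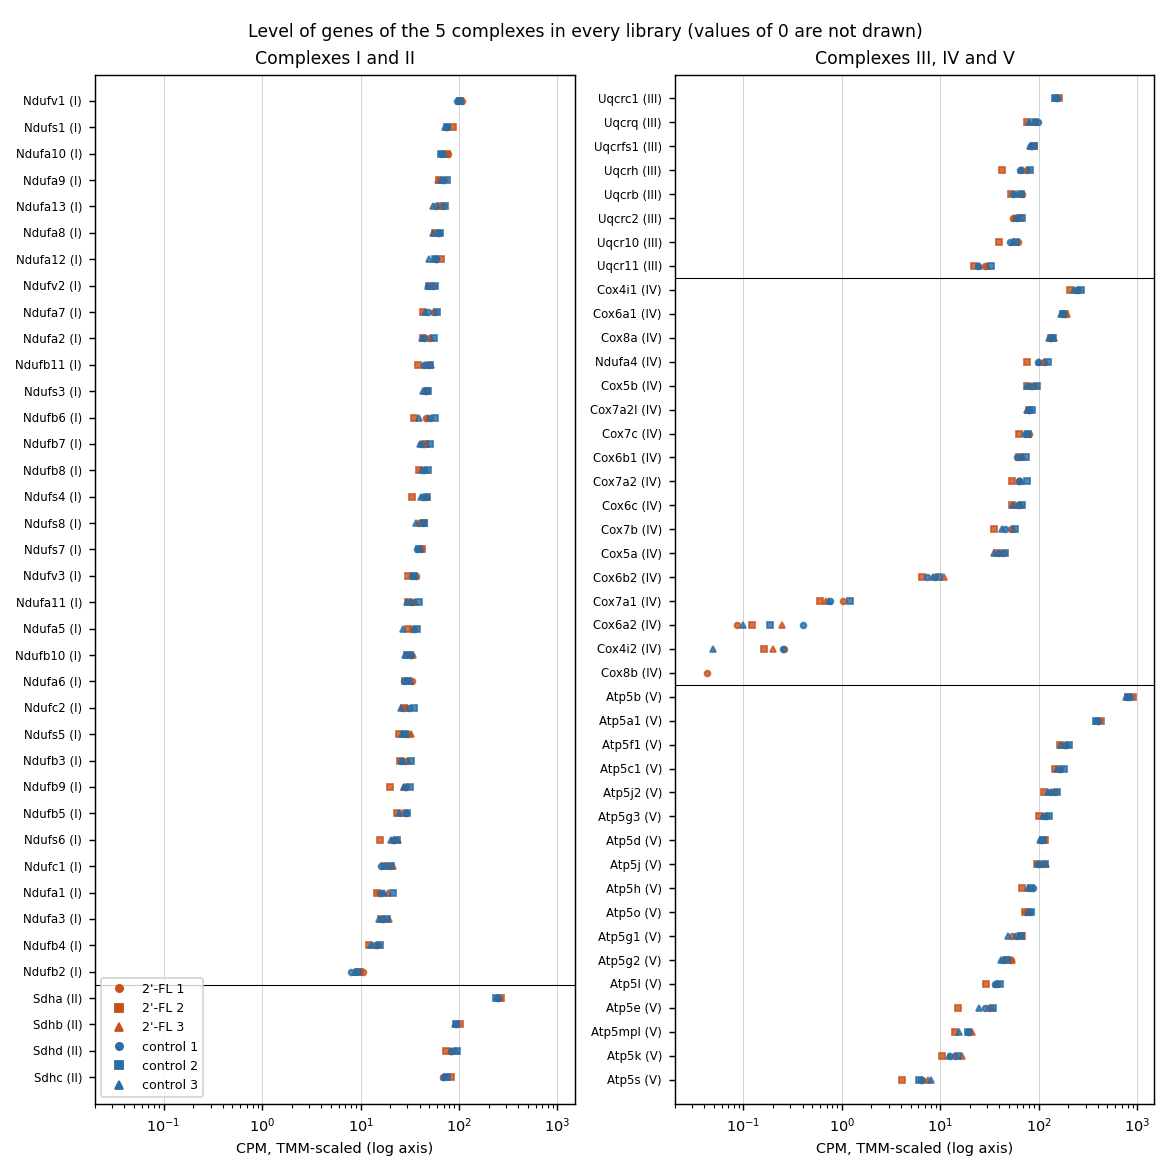
Level of the genes in the 6 libraries, as CPM after TMM scaling on a log axis, with 1 row per gene ordered by mean within its complex and values of 0 left out. Most genes lie above 10 CPM, Atp5b stands highest, the tissue forms of complex IV stand lowest, and the square of 2'-FL replicate 2 is often the leftmost point.

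The comparison of 2'-FL with control asked whether the respiratory chain transcripts responded within 6 h. No gene of the group passed the test. By edgeR's quasi-likelihood test with Benjamini-Hochberg adjustment over all genes, 0 of 78 were called, against 0 of 14129 genes (0.0%). The DESeq2 Wald test called 0 of them and 34 of 11937 genes with an adjusted p (0.285%), and limma-voom called 0 of them and 0 of 14129 genes (0.0%). With robust estimation edgeR called 0 of them and 5 of all genes (0.0354%). An unadjusted p under 0.05 was found for 4 of the 78, namely Ndufa10, Sdhd, Cox7a2 and Atp5g2, beside 1116 of all genes (7.9%). Of the 78 fitted log2 fold changes, 38 were above 0 and 40 below, with a median of -0.0058 beside -0.0056 over all genes tested. In RNA of whole cultures, fewer cells making a transcript and less of it per cell cannot be told apart.

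The libraries were precise enough to bound these differences. The log2 fold changes ran from -0.23 for Cox7a1 to 0.21 for Atp5g2, with a median standard error of 0.089. For 75 of 78 genes, or 96.2%, the 95% interval of the difference stayed within 1.5-fold in both directions, against 73.4% of all genes tested. The 3 wider ones belonged to Cox7a1, Atp5e and Atp5s. These intervals are not the detection limit of the adjusted test. A gene whose interval left out 0, such as Atp5g2, also went uncalled. The median over genes was 0.0061 in complex I, 0.07 in complex II, -0.05 in complex III, -0.04 in complex IV and -0.05 in complex V. With 1 library left out in turn, these medians ran from -0.029 to 0.078 in complex I, 0.011 to 0.12 in complex II, -0.081 to 0.029 in complex III, -0.094 to 0.044 in complex IV and -0.082 to 0.040 in complex V. Only in complex II did the sign hold.

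**Figure D2:**
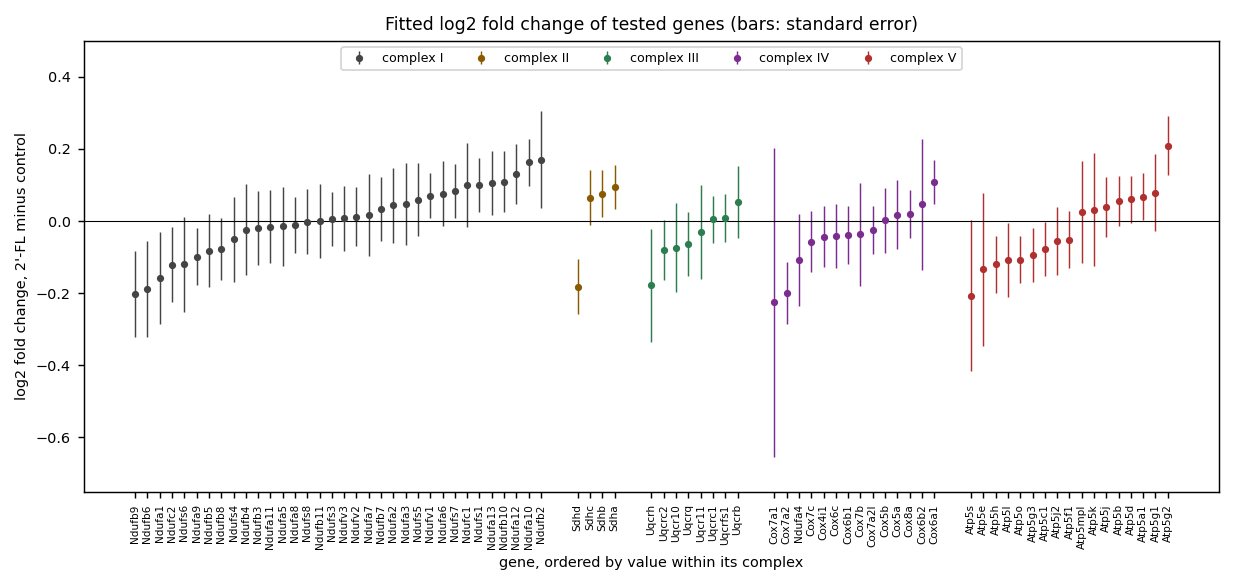
Fitted log2 fold change, 2'-FL minus control, of tested genes, ordered within each complex, with standard errors as bars. The values straddle 0 in every complex, Atp5g2 is highest at 0.21, and the longest bar belongs to Cox7a1.

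Summed by complex, the share of library counts was close to equal in the groups. For complex I it was 0.157 ± 0.0083% in treated and 0.157 ± 0.0117% in control libraries (mean and SD, n = 3 each). Complex II ranged from 0.0497 to 0.0518% in treated libraries and from 0.0491 to 0.0511% in controls. In the same order, complex III took 0.0585 ± 0.0043% and 0.0604 ± 0.0038%. For complex IV the shares were 0.118 ± 0.0113% and 0.120 ± 0.0100%, and for complex V 0.240 ± 0.0038% and 0.239 ± 0.0121%. In complexes I, III, IV and V the difference of the means was smaller than the SD of either group. The ranges of the groups overlapped for each of the 5 complexes.

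**Figure D3:**
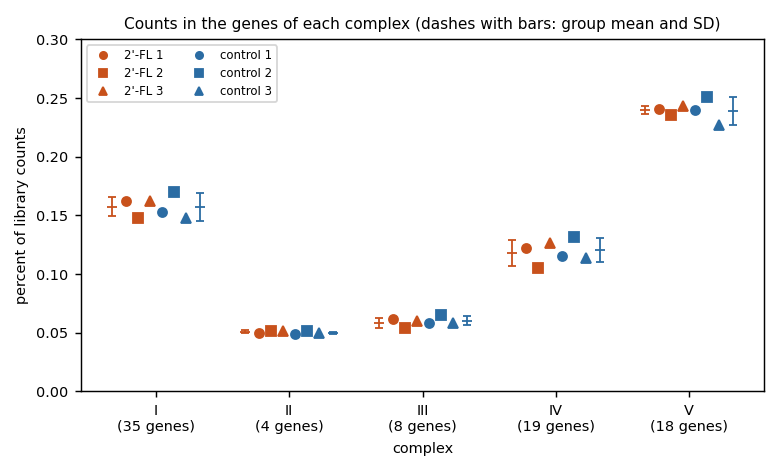
Percent of library counts in the genes of complexes I to V, with 1 symbol per library and group means with SD beside them. Within complexes I, III and IV the square of 2'-FL replicate 2 is the lowest point and the square of control replicate 2 the highest.

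The 7 core subunits of complex I carry the flavin and the iron-sulfur clusters along which electrons run from NADH. The lowest mean level was 40.0 CPM, for Ndufs7. Of the 7, 5 were higher and 2 lower with 2'-FL, and 0 passed the test. Ndufs7, which carries the last iron-sulfur cluster, stood at 41.2, 42.1 and 40.3 CPM against 37.2, 39.4 and 40.0 CPM. All 3 treated libraries lay above the controls, by 0.08 ± 0.07 on the log2 scale (SE; adjusted p = 0.825 by edgeR).

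Groups that do not overlap were few. With 2'-FL, 4 of the 78 genes had all 3 libraries above the controls, namely Ndufa10, Ndufs7, Sdha and Cox6a1, and 1, Cox7a2, had all 3 below. Over all genes tested the shares were 6.74% higher and 6.31% lower, or 13.1% in either direction.

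The 28 accessory subunits surround the core and are needed for assembly and stability. The 10 Ndufb genes, of the membrane arm, had means from 9.26 CPM for Ndufb2 to 46.6 CPM for Ndufb11, and the 18 others had means from 17.2 CPM for Ndufa3 to 71.6 CPM for Ndufa10. With 2'-FL, 4 Ndufb genes were higher and 6 lower (median -0.02), and 10 of the others were higher and 8 lower (median 0.01). None of the 28 passed the test over all genes by edgeR, with 1 at an unadjusted p under 0.05, and none by DESeq2 or limma-voom. Ndufa10, an accessory subunit on the matrix face encoded at chr1:92439010-92473860 on the minus strand (GRCm38), had the smallest p of the complex. It stood at 77.5, 75.3 and 74.0 CPM with 2'-FL and at 66.4, 66.3 and 69.9 CPM in controls. Every treated library lay above every control. The log2 fold change was 0.16 ± 0.07 (SE; adjusted p = 0.562 by edgeR), and its 95% interval ran from 0.02 to 0.30.

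Ndufb9, which lies in the distal membrane arm, had the next smallest p and the opposite sign. It stood at 28.7, 20.1 and 27.4 CPM with 2'-FL and at 28.2, 31.9 and 27.5 CPM in controls. The low value of 2'-FL replicate 2 set it apart, and the other libraries of both groups overlapped. Its log2 fold change of -0.20 ± 0.12 (SE; adjusted p = 0.721 by edgeR) became 0.01 when both libraries of number 2 were left out. Ndufa2, a small matrix-arm subunit, had the highest level per kilobase of the files' gene length in the complex, at 83.6 ± 9.65 (SD, n = 6). Per kilobase of the principal transcript Ndufa7 was higher, at 97.3. Ndufa2 stood at 49.9, 43.4 and 52.5 CPM against 44.2, 55.3 and 41.7 CPM, with full overlap of the groups.

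Complex II joins the tricarboxylic acid cycle to the chain. Its catalytic subunits Sdha, which binds the flavin and succinate, and Sdhb, which holds the iron-sulfur clusters, averaged 251.5 and 94.8 CPM. The membrane anchors Sdhc and Sdhd averaged 73.8 and 85.3 CPM. Sdha stood at 250.6, 267 and 261 CPM with 2'-FL and at 249, 239 and 242 CPM in controls, so that the treated libraries lay just above the controls. Its log2 fold change was 0.09 ± 0.06 (SE; by edgeR adjusted p = 0.746). Sdhd, encoded at chr9:50596357-50603812 on the minus strand, stood at 82.2, 73.8 and 83.9 CPM with 2'-FL and at 83.2, 96.3 and 92.4 CPM in controls. Control replicate 1 fell inside the treated range, and the other controls lay above it. The log2 fold change of Sdhd was -0.18 ± 0.08 (SE; adjusted p = 0.581 by edgeR), which was -0.08 without both libraries of number 2. The other 3 subunits had positive values between 0.07 and 0.09. A difference between Sdhd and its partners was not tested.

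Sdhd starts 98 bases from Timm8b, a gene on the other strand whose protein chaperones inner membrane proteins. Timm8b had a log2 fold change of -0.18 beside the -0.18 of Sdhd. A neighbour of this kind, with its start on the other strand within 1000 bases, was found for 30 of the 78 tested genes (38.5%), against 16.2% of 12532 tested protein-coding genes. Among the other pairs, Ndufs6 starts beside Mrpl36 and Ndufb5 beside Mrpl47, both genes of the mitochondrial ribosome, Ndufa7 beside the ribosomal protein gene Rps28, and Atp5j beside Gabpa, which encodes a transcription factor named below. Members of a pair did not share a sign throughout: Atp5j had 0.04 and Gabpa -0.08, and Ndufs6 had -0.12 and Mrpl36 0.04. Of all 84 rows, 29 share exonic bases with another gene, and since nothing states whether the counting used strand, reads of such a pair cannot be told apart. Pseudogene rows named after these genes held 21 counts in 11 rows.

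In complex III, Uqcrfs1 encodes the Rieske iron-sulfur protein, Uqcrc1 and Uqcrc2 the core proteins, and 5 other genes small subunits. Means ran from 27.1 CPM for Uqcr11 to 152 CPM for Uqcrc1. With 2'-FL, 3 of the 8 were higher and 5 lower, and 0 passed the test. Uqcrh, the hinge protein that helps cytochrome c bind, had the smallest p. It stood at 75.8, 42.5 and 68.8 CPM with 2'-FL and at 64.5, 81.3 and 65.5 CPM in controls. The 2 libraries of number 2 were its lowest and its highest. The log2 fold change was -0.18 ± 0.16 (SE; by edgeR adjusted p = 0.821) with all libraries and 0.16 without that pair. Uqcrc2, a long transcript by comparison, stood at 55.1, 64.8 and 56.7 CPM against 59.9, 68.2 and 58.8 CPM, a difference of -0.08 ± 0.08 on the log2 scale (SE).

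Uqcr10 and Uqcrb, small subunits of the membrane part and of the matrix side, had the highest levels per kilobase of gene length in the complex. These were 92.1 ± 13.2 and 70.1 ± 7.86 (SD, n = 6). Per kilobase of the principal transcript Uqcr10 and Uqcrh were highest, at 124 and 121, with Uqcrb at 115. Uqcr10 stood at 61.7, 39.9 and 55.7 CPM with 2'-FL and at 51.1, 59.2 and 55.0 CPM in controls. Uqcrb stood at 68.4, 52.4 and 67.0 CPM against 55.4, 66.9 and 58.5 CPM. In both, 2'-FL replicate 2 was the lowest library and the groups overlapped.

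Complex IV showed a clear split between forms of the same subunit. Where a subunit has a ubiquitous and a tissue form, the ubiquitous form held far more of the signal than the tissue form. The testis form Cox6b2 had the highest share of the tissue forms, 7.64% by gene length and 13.0% by the length of the principal transcript. Shares of an isoform pair were taken from levels per kilobase of the gene length in the files and described without a test.

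Subunit 4 is a regulatory subunit that spans the inner membrane. The ubiquitous Cox4i1 stood at 253, 208 and 253 CPM with 2'-FL and at 240, 268 and 228 CPM in controls, and made up 99.9 ± 0.0849% of the pair (SD, n = 6). The lung form Cox4i2 had 6, 4 and 4 counts with 2'-FL and 5, 0 and 1 in controls. These counts are too few for a comparison. For subunit 6a, Cox6a1 stood at 185, 183 and 193 CPM with 2'-FL and at 177, 177 and 167 CPM in controls. The treated libraries lay above the controls by 0.11 ± 0.06 on the log2 scale (SE; by edgeR adjusted p = 0.716). The heart and skeletal muscle form Cox6a2 had 2, 3 and 5 counts against 8, 4 and 2.

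Subunit 6b faces the intermembrane space. Its ubiquitous form Cox6b1 stood at 64.5, 63.1 and 69.5 CPM with 2'-FL and at 60.7, 73.6 and 68.0 CPM in controls. The testis form Cox6b2, at chr7:4751792-4753094 on the minus strand, stood at 8.91, 6.57 and 11.0 CPM and at 7.42, 9.69 and 8.36 CPM, from 1115 counts in all. It shares no exonic bases with another annotated gene. Cox6b2 made up 7.84 ± 1.48% of the pair in treated libraries and 7.43 ± 0.28% in controls (SD, n = 3 each), with the control shares inside the treated range. Over the 6 libraries its share was 7.64%, and 13.0% by the length of the principal transcript.

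Subunit 7a lies in the membrane and exists as the muscle form Cox7a1, the ubiquitous form Cox7a2 and the relative Cox7a2l, a factor that joins complexes III and IV into supercomplexes. Cox7a1 had 24, 15 and 14 counts with 2'-FL and 15, 26 and 15 in controls, or 1.12 ± 0.24% of the 3 genes (SD, n = 6). Cox7a2, at chr9:79755361-79759878 on the minus strand, stood at 62.9, 54.0 and 63.0 CPM with 2'-FL and at 63.5, 76.3 and 66.6 CPM in controls. Each treated library lay below each control, though the nearest values of the 2 groups were under 1 CPM apart. The log2 fold change of Cox7a2 was -0.20 ± 0.09 (SE; adjusted p = 0.593 by edgeR), and it was -0.05 without both libraries of number 2. Cox7a2l stood at 79.8, 79.1 and 78.3 CPM against 79.6, 85.5 and 76.2 CPM. The share of Cox7a2 among the 3 genes was 48.2, 44.9 and 49.0% with 2'-FL and 48.7, 51.3 and 51.0% in controls, which overlap.

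Of subunit 7b, Cox7b stood at 52.3, 35.2 and 55.4 CPM with 2'-FL and at 46.0, 57.5 and 42.6 CPM in controls, and the testis form Cox7b2 had 0 counts. Of subunit 8, Cox8a stood at 130, 134 and 144 CPM against 134, 141 and 128 CPM, with the groups interleaved. The heart and skeletal muscle form Cox8b had 1 count, in 2'-FL replicate 1, and the testis form Cox8c had 0. A count of 0 over the 6 libraries allows up to 3 counts, or 0.0231 CPM, and this limit covers counting error only. Cox6a1 and Cox8a had the highest levels per kilobase of gene length in the complex, 257 ± 12.8 and 248 ± 11.4 (SD, n = 6). Per kilobase of the principal transcript Cox4i1 and Cox6a1 were highest, at 320 and 316, with Cox8a at 245. Among subunits with 1 form under the naming rule, the 5 genes Cox5a, Cox5b, Cox6c, Cox7c and Ndufa4 had means from 40.0 to 104 CPM. Of these, 2 were higher, 3 lower and 0 past the test. Ndufa4l2, named after Ndufa4 but outside the rule, averaged 2.10 CPM. Its log2 fold change was 0.68 ± 0.37 (SE; adjusted p = 0.703 by edgeR).

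**Figure D4:**
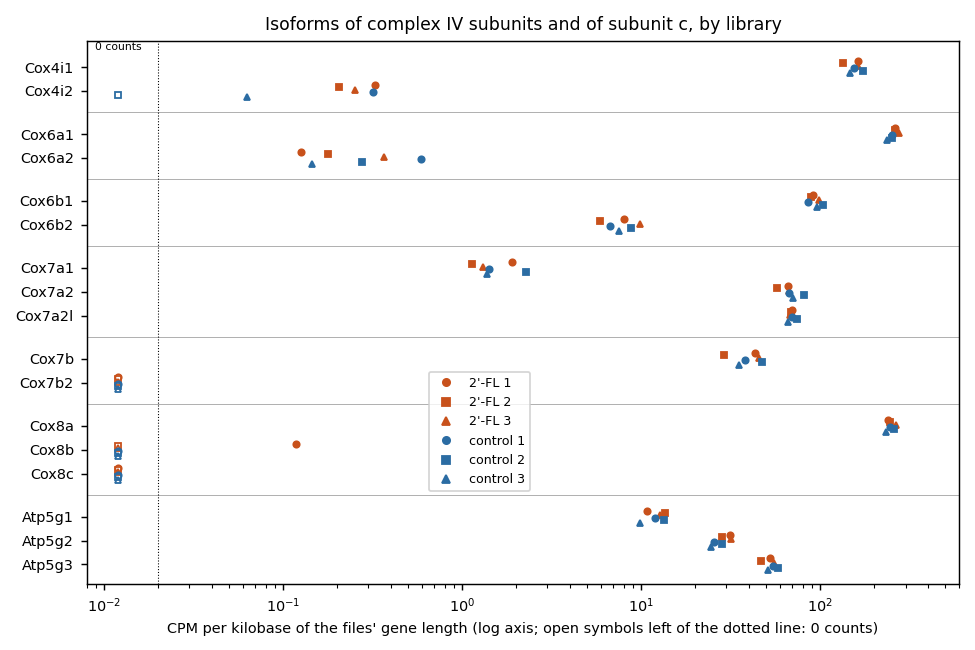
Level of each isoform in the 6 libraries, as CPM per kilobase of the gene length in the files on a log axis, with open symbols for 0 counts. The ubiquitous forms lie far to the right of the tissue forms, Cox6b2 stands between them, and treated and control libraries are mixed within each row except for Cox6a1 and Cox7a2.

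The promoters of the forms at unlike levels are shown for a pair where the tissue form was all but absent and for the pair where it was not. They are RefSeq windows on GRCm38.p6 from 250 bases before to 50 after the start site, in lower case, with motif matches on either strand in capitals. The motifs searched were the NRF1 palindrome, the GABPA core CCGGAAG, the YY1 core AAGATGGC and the TATA box as TATAAA. NRF1 and GABPA are known activators of respiratory chain genes. The CCAAT box, bound by NF-Y, was searched as well and is not capitalised. All windows lie on the minus strand: Cox8a at chr19:7217567-7217866, Cox8b at chr7:140900397-140900696, Cox6b1 at chr7:30626065-30626364 and Cox6b2 at chr7:4753045-4753344.
Cox8a: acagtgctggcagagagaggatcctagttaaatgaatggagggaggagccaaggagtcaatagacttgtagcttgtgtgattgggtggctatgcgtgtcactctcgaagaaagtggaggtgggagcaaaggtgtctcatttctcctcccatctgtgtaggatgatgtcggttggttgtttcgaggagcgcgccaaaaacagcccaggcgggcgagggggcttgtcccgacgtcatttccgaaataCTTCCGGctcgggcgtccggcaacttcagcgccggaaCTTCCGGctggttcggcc
Cox8b: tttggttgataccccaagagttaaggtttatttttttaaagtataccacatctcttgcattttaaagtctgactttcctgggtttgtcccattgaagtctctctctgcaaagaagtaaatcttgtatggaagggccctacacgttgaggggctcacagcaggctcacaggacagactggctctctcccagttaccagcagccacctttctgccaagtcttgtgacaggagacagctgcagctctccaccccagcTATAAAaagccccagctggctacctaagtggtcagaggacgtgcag
Cox6b1: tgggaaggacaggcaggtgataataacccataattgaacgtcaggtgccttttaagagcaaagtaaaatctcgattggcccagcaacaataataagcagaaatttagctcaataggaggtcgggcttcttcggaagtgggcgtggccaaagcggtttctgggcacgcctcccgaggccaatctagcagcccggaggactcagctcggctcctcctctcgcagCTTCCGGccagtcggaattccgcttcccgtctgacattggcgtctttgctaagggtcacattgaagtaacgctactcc
Cox6b2: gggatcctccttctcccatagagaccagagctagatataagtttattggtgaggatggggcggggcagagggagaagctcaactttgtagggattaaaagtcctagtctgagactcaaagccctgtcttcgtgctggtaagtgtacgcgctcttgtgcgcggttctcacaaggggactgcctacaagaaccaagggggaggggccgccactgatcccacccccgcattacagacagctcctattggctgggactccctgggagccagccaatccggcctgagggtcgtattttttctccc
With the start site as position 0, the Cox8a window holds the GABPA letters from -5 and from 32, and the Cox6b1 window from -28. The Cox8b window holds the TATA letters from 4. None of the capitalised motifs lies in the Cox6b2 window. The ratio of observed to expected CpG was 0.842 for Cox8a and 0.115 for Cox8b, and 0.807 for Cox6b1 and 0.432 for Cox6b2. Pairs not shown did not all follow this order. Cox7a2 had a ratio of 0.833 and Cox7a1 0.333, but Cox7b had 0.368 and its testis form Cox7b2 0.564. The GABPA letters were absent from the windows of Cox7a2, Cox7a1, Cox7b and Cox7b2. A match describes letters and does not show that a factor binds.

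In complex V, 2 subunits of the F1 head, where ATP is made, had the highest levels of the whole group in CPM. Per kilobase of gene length Cox6a1 and Cox8a were higher. Per kilobase of the principal transcript Atp5b was highest, at 428, against 320 for Cox4i1, 316 for Cox6a1, 245 for Cox8a and 161 for Atp5a1. Atp5b, the catalytic beta subunit, stood at 799, 902 and 804 CPM with 2'-FL and at 838, 804 and 769 CPM in controls. Atp5a1, the alpha subunit, stood at 398, 433 and 392 CPM against 397, 387 and 384 CPM. Their levels per kilobase of gene length were 193 ± 10.9 and 127 ± 5.68 (SD, n = 6), and 2'-FL replicate 2 was the highest library for both, whereas it was the lowest for 39 of the 78 genes. Their log2 fold changes were 0.06 ± 0.07 and 0.07 ± 0.06 (SE). The stalk subunits Atp5c1, Atp5d and Atp5e had values of -0.08, 0.06 and -0.13, and Atp5e varied most between libraries, from 15.1 CPM in 2'-FL replicate 2 to 34.4 CPM in control replicate 2.

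The peripheral stalk holds the head still against the turning rotor. Its genes Atp5f1, Atp5h, Atp5j and Atp5o averaged 78.0 to 184 CPM, with 1 higher and 3 lower. Atp5o, the oligomycin-sensitivity protein, stood at 74.0, 73.5 and 77.8 CPM with 2'-FL and at 82.0, 83.5 and 77.1 CPM in controls. Control replicate 3 fell inside the treated range. The log2 fold change was -0.11 ± 0.07 (SE; by edgeR adjusted p = 0.732). The second row of Atp5o had 0 counts. It shares 243 exonic bases with the first, so reads of the shared part may have gone to either or been dropped. The small membrane subunits Atp5j2, Atp5k, Atp5l and Atp5mpl averaged 13.5 to 134 CPM with 2 higher and 2 lower, and Atp5s, which encodes a coupling factor, averaged 6.44 CPM.

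The c ring turns as protons pass. Its subunit is encoded by 3 genes, Atp5g1, Atp5g2 and Atp5g3, which differ in the targeting peptide and give the same mature protein. Atp5g2, at chr15:102662864-102672352 on the minus strand, had the smallest p of the 78 genes. It stood at 52.3, 47.2 and 53.1 CPM with 2'-FL and at 43.1, 47.7 and 41.1 CPM in controls. The lowest treated library lay just under the highest control, and both are of number 2. The log2 fold change was 0.21 ± 0.08 (SE; adjusted p = 0.562 by edgeR), with a 95% interval from 0.03 to 0.38. The DESeq2 and limma-voom adjusted p were both 0.556. Leaving out both libraries of number 2, its lowest treated and highest control, had to raise the log2 fold change. It was then 0.32 (adjusted p = 0.151 by edgeR), which is a description only. Atp5g1 stood at 53.4, 67.1 and 62.5 CPM against 58.8, 65.7 and 48.6 CPM. Atp5g3 stood at 114, 101 and 120 CPM against 119, 127 and 112 CPM. Both overlapped between groups.

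Per length, the 3 genes were unequal, with Atp5g3 highest and Atp5g1 lowest. Atp5g2 made up 33.1, 31.9 and 31.9% of the 3 with 2'-FL and 27.8, 28.5 and 28.7% in controls. Atp5g3 made up 55.4, 52.6 and 55.3% against 59.2, 58.1 and 59.8%. Neither overlapped between groups, and the means were 32.3 ± 0.69% and 28.3 ± 0.44% for Atp5g2 and 54.4 ± 1.57% and 59.0 ± 0.87% for Atp5g3 (SD, n = 3 each). Atp5g1 made up 13.3 ± 2.01% and 12.6 ± 0.96%, which overlapped. The differences for Atp5g2 and Atp5g3 were larger than the spread between replicates, but they are not independent, being parts of 1 whole. They were noticed among 7 isoform groups after the values were seen and were given no test. By the length of the principal transcript the shares of Atp5g2 were 32.7 ± 0.54% and 28.6 ± 0.41%, again without overlap.

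The promoters of the 3 genes are shown because they give 1 mature protein at unlike levels. The windows are laid out as above, and all lie on the minus strand, Atp5g1 at chr11:96075582-96075881, Atp5g2 at chr15:102670998-102671297 and Atp5g3 at chr2:73911277-73911576.
Atp5g1: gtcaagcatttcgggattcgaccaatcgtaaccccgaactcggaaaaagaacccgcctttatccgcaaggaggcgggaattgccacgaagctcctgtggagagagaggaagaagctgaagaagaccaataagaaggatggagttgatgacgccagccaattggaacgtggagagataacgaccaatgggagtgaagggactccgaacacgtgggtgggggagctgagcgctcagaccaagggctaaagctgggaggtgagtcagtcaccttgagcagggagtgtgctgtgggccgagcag
Atp5g2: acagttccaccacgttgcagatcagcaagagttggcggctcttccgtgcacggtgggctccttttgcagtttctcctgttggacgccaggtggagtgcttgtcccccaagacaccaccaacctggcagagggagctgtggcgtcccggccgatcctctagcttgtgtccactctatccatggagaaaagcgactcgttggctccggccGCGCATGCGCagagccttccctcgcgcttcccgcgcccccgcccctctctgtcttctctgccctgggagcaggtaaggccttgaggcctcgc
Atp5g3: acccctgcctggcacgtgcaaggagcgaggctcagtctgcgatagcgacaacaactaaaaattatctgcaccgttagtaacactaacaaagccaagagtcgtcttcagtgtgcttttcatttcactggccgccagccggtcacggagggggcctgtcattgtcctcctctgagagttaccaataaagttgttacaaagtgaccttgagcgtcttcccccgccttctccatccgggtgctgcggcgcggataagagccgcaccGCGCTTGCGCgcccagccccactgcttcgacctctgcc
The NRF1 letters begin at -42 in the Atp5g2 window and at 12 in the Atp5g3 window, and none of the 4 motifs lies in the Atp5g1 window. RefSeq gave windows for 68 of the 83 symbols, 73 in all. Of these, 18 hold the NRF1 letters (24.7%), against 9.71% of 12617 windows of tested protein-coding genes and 4.6% of all 32851 windows. The YY1 letters were in 10 windows (13.7%), against 4.30% and 2.75%. The GABPA letters were in 16 (21.9%), against 17.1% and 8.86%. The CCAAT box was in 31 (42.5%), against 38.1% and 37.4%, and the TATA box in 8 (11.0%), against 7.0% and 13.6%. Some of these windows belong to untested genes. In the 71 windows of tested genes of the group, the TATA box was in 6 (8.45%) and the NRF1 letters in 18 (25.4%). A gene with several windows counts once for each. Ndufs6 was the gene whose window held both the NRF1 and the YY1 letters, and the NRF1 windows also included Sdha, Sdhd, Uqcrc1, Cox6a1 and Atp5o.

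In some libraries the respiratory chain genes deviated together. Of the 78, 2'-FL replicate 2 was the lowest library for 39 (50%), against 24.4% of all genes tested, and control replicate 2 was the highest for 42 (53.8%), against 18.0%. Control replicate 3 was the lowest for 26 (33.3%), against 17.3%. The median over the 78 of the log2 level around the mean of the 6 libraries was -0.14 in 2'-FL replicate 2 and 0.14 in control replicate 2. The other libraries lay between -0.08 and 0.07. The 2 libraries at the ends belong to different groups, and the labels give no batch.

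Within the group the shift varied with transcript length, though not in every gene. Of genes with a principal transcript under 600 bases, 22 in number, the median deviation was -0.27 in 2'-FL replicate 2 and 0.17 in control replicate 2. For 35 genes of 600 to 1200 bases it was -0.15 and 0.15, and for 21 longer genes it was 0.06 and 0.02. The short group holds genes such as Atp5e, Uqcrh and Ndufa4, and the long group Sdha, Ndufs1 and Atp5b. Of the 21 long genes, 2'-FL replicate 2 was the highest library for 8 and the lowest for 5, among them Atp5s and Ndufs4. All tested protein-coding genes under 600 bases, 131 in number and including the 22 above, gave -0.25 and 0.13. Those of 600 to 1200 bases, 1006 in number and including the 35 above, gave -0.09 and 0.10. Genes outside the group were not taken separately. Across the 78 genes, Pearson's r of the deviation with log2 length was 0.58 in 2'-FL replicate 2, -0.52 in control replicate 2, -0.44 in 2'-FL replicate 3 and -0.32 in 2'-FL replicate 1. In control replicates 1 and 3 it was 0.05 and 0.09. Over 12508 tested protein-coding genes, in the same order of libraries, r was 0.08, -0.22, -0.12, -0.04, 0.14 and 0.11. These correlations are across genes of the same libraries, which are not independent replicates. RNA quality was not measured in the files, and its part was not tested.

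**Figure D5:**
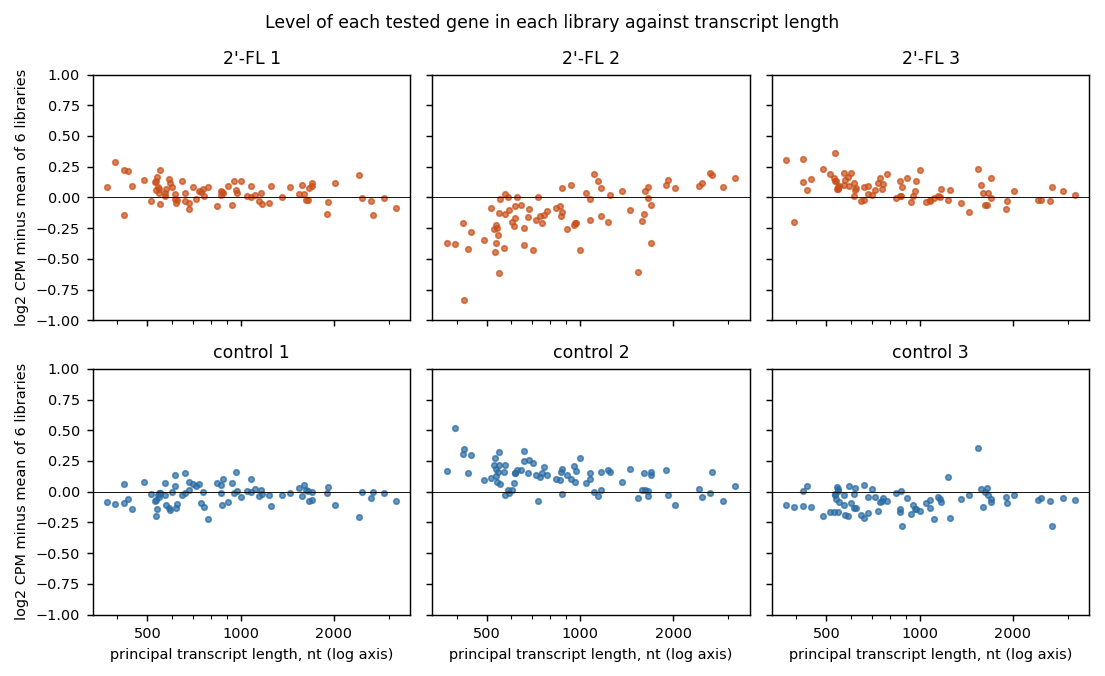
Deviation of each of the 78 genes from its mean over the 6 libraries, on the log2 scale, against the length of its principal transcript on a log axis, with 1 panel per library. Most short genes lie below 0 in 2'-FL replicate 2 and above 0 in control replicate 2. The 6 longest genes lie above 0 in 2'-FL replicate 2 and on both sides of 0 in control replicate 2.

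The sign of the median over the group was not stable to the choice of libraries. Leaving out each library in turn gave medians from -0.05 without control replicate 3, with 24 genes higher and 54 lower, to 0.05 without control replicate 2, with 55 higher and 23 lower. Both libraries of number 2 were also left out together. They had been seen to be the lowest treated and the highest control library for many of these genes, so the fitted values had to rise, and the result is given as a description only. It was 69 higher and 9 lower, with a median of 0.10 beside 0.0028 over all genes. In that fit 12 of the 78 had an unadjusted p under 0.05, beside 1283 of 14228 genes (9.02%), and 0 of 78 were called by edgeR, while 38 of all genes were. It leaves 2 libraries in each group. A further fit with all libraries removed each library's trend in GC content and in the gene length listed in the files, taken over all genes tested. That length is not the principal transcript length used above, so the trend described there was not removed as such. In this fit 48 were higher and 30 lower, with a median of 0.03 beside 0.016 over all genes, and 0 were called. Of the 78 genes, 0 passed the threshold in each of these fits.

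Other genes of oxidative metabolism were counted in the same fit, and 0 passed by edgeR, DESeq2 or limma-voom in any of the lists that follow. Of the 13 subunits encoded in mitochondrial DNA, 10 were tested, 9 were higher and 1 lower, with a median of 0.05 and summed levels of 3601 to 5952 CPM with 2'-FL and 4308 to 5051 CPM in controls. Mt-Co1 averaged 2323 CPM, while mt-Co2, mt-Co3 and mt-Atp6, carried on the same genome, averaged under 3 CPM each. Counts within the mitochondrial genome were thus uneven, and the cause was not tested. Of 10 tested subunits and electron carriers outside the naming rule, such as Cyc1, cytochrome c (Cycs) and Etfdh, 7 were higher and 3 lower.

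Assembly factors, which build the complexes without being part of them, were counted as well. Of 17 for complex I, 6 were higher and 11 lower (median -0.06), and 3 had all treated libraries below the controls, a pattern found in 6.31% of all genes. Of 22 tested for complex IV, 10 were higher and 12 lower (median -0.07). All treated libraries lay above the controls for 1 and below for 2, patterns found in 6.74% and 6.31% of all genes. Cox11, which inserts copper into complex IV, had the smallest p of these lists. It stood at 5.12, 4.80 and 3.99 CPM with 2'-FL and at 7.22, 7.72 and 6.83 CPM in controls. All treated libraries lay below the controls, by -0.64 ± 0.17 on the log2 scale (SE), with an adjusted p of 0.317 by edgeR and 0.152 by DESeq2. Assembly factors of complexes II, III and V gave 2 of 4, 1 of 6 and 2 of 4 higher.

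Enzymes of the tricarboxylic acid cycle, which feeds NADH and succinate to the chain, gave 11 of 14 higher with a median of 0.04. Their summed level was 1799 to 1944 CPM with 2'-FL and 1740 to 1763 CPM in controls, without overlap, and 3 of the 14 had all treated libraries above the controls, a pattern found in 6.74% of all genes. Idh3g, a subunit of isocitrate dehydrogenase, stood at 56.8, 59.3 and 54.7 CPM against 51.0, 47.5 and 52.5 CPM, a difference of 0.18 ± 0.07 on the log2 scale (SE; by edgeR adjusted p = 0.572). Citrate synthase, Cs, had 0.16 ± 0.08 (SE; by edgeR adjusted p = 0.642). Coenzyme Q synthesis gave 7 higher and 6 lower of 13, with 2 below the controls in all treated libraries (6.31% of all genes). Factors of mitochondrial DNA expression gave 6 higher and 10 lower of 16. Of 16 tested regulators of mitochondrial biogenesis, 9 were higher and 7 lower, with a median of 0.0074 and 0 at an unadjusted p under 0.05. Among them Nrf1, Gabpa and Yy1, whose motifs are named above, had log2 fold changes of -0.06, -0.08 and 0.01, and the coactivator Ppargc1a averaged 0.193 CPM.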

How the data were processed

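The authors deposited unnormalised read counts for every annotated gene, in 1 table for each of 6 libraries. They extracted total RNA with a Qiagen RNeasy kit and prepared libraries with the NEBNext Ultra II RNA kit, per the labels. Per the submitters' processing notes, bcl2fastq, FastQC 0.11.9 and Bowtie2 with the version 2.7.3a were used, and the build is named as GRCh38. The tables hold mouse identifiers, and 53585 of the 54495 found in the GENCODE M21 annotation (98.3%) have the same start and end there, so coordinates are given on GRCm38. The counting program and its use of strand were not stated in the labels or notes.

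Counts were filtered with filterByExpr (minimum count 10), scaled by TMM and compared with edgeR 4.0.16 (R 4.3.3), by the quasi-likelihood F-test with Benjamini-Hochberg adjustment over 14129 genes and a threshold of 0.05. The alternatives were DESeq2 1.42.0, limma-voom (limma 3.58.1), other scalings, other filters and robust estimation. They also held a replicate block, removal of trends in GC and in the files' gene length, and each library left out in turn. Leaving out both libraries of number 2 and the length of the principal transcript (APPRIS tags, averaged where a gene has several) were added after the data were seen. Intervals of the log2 fold change are at 95%. On simulated counts of 13927 genes the edgeR test recovered 24% of genes changed 1.25-fold, 72% changed 1.5-fold and 90% changed 2-fold. Of 141 calls, 4 were in unchanged genes. The simulated counts varied independently for each gene, without the shared shifts seen in the libraries of number 2. With 50 genes changed at each fold as well, recovery in the real data may be lower.

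The values of 1 gene of complex I are not reported here, though it is kept in counts and medians. The respiratory chain genes and the gene lists were chosen with earlier results of these data known. Values per library are given for the 2 genes of each complex with the smallest p, the 2 with the highest level per gene length and every isoform with a count, and for the 2 of each other list with the smallest p at most. Ndufs7, Atp5e and the neighbouring genes were named after their values were seen. Nothing in the labels says that replicates came from separate cultures, and a p-value here speaks only of variation among these libraries, which may be technical. No 2 libraries agreed within sampling noise (chi-square per gene of 5.26 to 14.8 within groups), and each was counted once.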

Additional observations from a re-analysis of the deposited data

How the results depend on the processing

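No setting called any of the 78 respiratory chain genes: the count was 0 under each of the 18 alternatives run. The number of all genes past the threshold was 0 with all libraries, 158 without a filter on low counts, 34 by DESeq2, 5 with robust estimation and 38 without both libraries of number 2. It ran from 0 to 28 when 1 library was left out, with 21 without 2'-FL replicate 1 and 28 without control replicate 2. Leaving out a library in turn moved the median of complex II between 0.011 and 0.12 and changed the sign of the medians of complexes I, III, IV and V. Without both libraries of number 2, a choice made after seeing the data, the medians were 0.12 in complex I, 0.095 in complex III, 0.13 in complex IV and 0.065 in complex V. In that fit the sign changed for Atp5b (-0.0037), Atp5g3 (0.019), Cox4i1 (0.11), Cox6b1 (0.059), Cox7a1 (0.21), Cox7a2l (0.022), Cox7b (0.28), Ndufb9 (0.013), Uqcr10 (0.15) and Uqcrh (0.16). With length and GC trends removed, it changed for Cox6b1 (0.024), Cox7a2l (0.031) and Cox7b (0.030).

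With 1 library left out, log2 fold changes changed sign for 13 of the 24 named genes. The ranges were -0.0049 to 0.087 for Atp5b, -0.023 to 0.18 for Atp5g1, -0.089 to 0.045 for Cox4i1, -0.11 to 0.030 for Cox6b1, -0.13 to 0.22 for Cox6b2, -0.48 to 0.050 for Cox7a1, -0.056 to 0.022 for Cox7a2l and -0.15 to 0.14 for Cox7b. They were -0.021 to 0.054 for Cox8a, -0.030 to 0.18 for Ndufa2, -0.21 to 0.091 for Uqcr10, -0.017 to 0.17 for Uqcrb and -0.35 to 0.038 for Uqcrh. None of these genes was called in any fit. Atp5a1, Atp5g2, Atp5o, Cox6a1, Cox7a2, Ndufa10, Sdha, Sdhd and Uqcrc2 kept their sign in all alternatives.

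The counts gave no sign that the replicate numbers pair the libraries. Same-numbered libraries deviated from their group means with correlations of -0.12 to -0.05, and 0 of 6 libraries correlated best with their own number. With 3 libraries in each group, this check cannot exclude shared culture or handling. With a replicate block, 1 of all genes and 0 of the 78 passed. The block with length and GC trends removed gave 0.026 for Cox6b1, 0.030 for Cox7a2l and 0.021 for Cox7b.

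Isoform shares, as means of 6 libraries, depend on the length used. Without a length correction they were 88.5% for Cox6b1, 11.5% for Cox6b2, 0.575% for Cox7a1, 44.3% for Cox7a2, 55.1% for Cox7a2l, 26.7% for Atp5g1, 21.3% for Atp5g2 and 52.0% for Atp5g3. By the length of the principal transcript they were 87.0% for Cox6b1, 13.0% for Cox6b2, 56.0% for Cox7a2, 42.7% for Cox7a2l, 8.44% for Atp5g1 and 60.9% for Atp5g3. Complexes I to V took 0.398, 0.0717, 0.158, 0.431 and 0.305% of the signal per gene length, and 0.428, 0.0686, 0.183, 0.476 and 0.501% of the signal per length of the principal transcript. With 3 libraries in each group, small changes may have gone undetected, and no cause of these shifts was tested.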
